A study of Homo sapiens with 12 samples.

Results

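This account describes 45 genes of homologous recombination and the Fanconi anaemia pathway, followed through 12 libraries of newly made RNA. The genes were taken from a fixed list of symbols, matched to the Entrez gene identifiers of the count table. That list was chosen with earlier results of these data known. All 45 were found among its 23434 rows. The libraries came from U2OS-MycER cells, derived from a human osteosarcoma. Their transgene MycER joins Myc to the oestrogen receptor and is activated by 4-hydroxytamoxifen (OHT). Cells carried a doxycycline-induced short hairpin RNA, either non-targeting (shNT) or directed against CDK12 (shCDK12), and were grown without or with OHT. The 4 groups of 3 libraries were labelled shNT, shNT_OHT, shCDK12 and shCDK12_OHT.

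All groups shared the MycER transgene, doxycycline at 1 µg/mL, a nocodazole block at 100 ng/mL for 8 h, collection of loosened mitotic cells and a release of 12 h. The OHT groups received 300 nM OHT for 40 h. Newly made RNA was labelled with 0.5 mM 5-ethynyl uridine (EU) over 2 h and pulled down from a mix of 40 µg of human and 10 µg of mouse RNA (EU-seq). The cells are thus 1 transformed line, sampled at 1 time after mitosis, with a transgenic form of Myc. Neither the labels nor the table say whether the replicates were separate cultures, so p-values measure only the spread between these libraries.

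Homologous recombination rebuilds a broken chromosome from its sister. Nucleases trim the broken ends, BRCA1 and its partner BARD1 recruit PALB2 and BRCA2, these start strand exchange with the sister, and helicases and nucleases then take the joined molecules apart. The Fanconi pathway clears crosslinks between DNA strands: a core complex attaches ubiquitin to FANCD2 and FANCI, which call in nucleases, and the repair is completed by recombination. CDK12, with cyclin K, phosphorylates the tail of RNA polymerase II, and its loss is known from other work to lower the expression of many genes of this kind.

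The libraries held between 1251695 and 10447836 counts, and the genes described here took 0.176% to 0.232% of them. Depth was uneven between groups: 1928373 to 5227279 counts in shNT, 1251695 to 3666406 in shNT_OHT, 4142570 to 9400045 in shCDK12 and 5378438 to 10447836 in shCDK12_OHT. Levels are given as CPM, the counts scaled to a common library size by edgeR's TMM factors, as the mean of 3 libraries or per library. They compare a gene between libraries, not genes with each other, since they are not corrected for length. Adjusted p-values are those of edgeR (quasi-likelihood test), corrected by the Benjamini-Hochberg method over all genes tested. A gene was called where its adjusted p was under 0.05, and fold changes are on the log2 scale. In bulk RNA, fewer cells of a kind and less RNA per cell cannot be told apart, and without a mouse spike-in in the table every change is relative to the other human genes.

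New RNA of CDK12 itself did not separate the libraries labelled shCDK12 from shNT. It stood at 323, 289 and 300 CPM in shNT and at 293, 277 and 298 CPM in the libraries labelled shCDK12, a log2 fold change of -0.08 ± 0.08 (SE, adjusted p = 0.447 by edgeR). With OHT the groups did not overlap: 434, 356 and 401 CPM in shNT_OHT against 215, 208 and 218 CPM in shCDK12_OHT, a difference of -0.88 ± 0.11 (SE, adjusted p = 0.000111). Only newly made RNA was read here, and neither the total RNA nor the protein of CDK12, so the silencing itself cannot be judged from these levels. The names shCDK12 and shCDK12_OHT below mean the libraries so labelled, and each direction drawn from them rests on that label. An exchange of the labels shCDK12 and shCDK12_OHT cannot be told apart from an effect of the hairpin here. The values under such an exchange are therefore given as well, an alternative chosen after the data were seen. It sets each shCDK12 group against the other control group. CDK12 was then lower in shCDK12 than in shNT_OHT (-0.44, adjusted p = 0.0107 by edgeR). In shCDK12_OHT it averaged 214 CPM, against 304 CPM in shNT. Whether the labels were exchanged was not tested.

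Defining markers of the line were checked as well. VIM, FN1, COL1A1, SPARC, RUNX2 and CDH2, genes of mesenchymal and bone-forming cells, were detected in all 12 libraries, while COL1A2 and TWIST1 stayed at 5 counts or fewer in any library. KRT19 was at 0 throughout, the blood markers PTPRC and CD3E had at most 7 counts, and the endothelial markers PECAM1 and VWF at most 27. Of the other epithelial markers, EPCAM averaged 0.820 to 8.03 CPM, highest in shCDK12, and CDH1 6.10 to 9.57 CPM. The 6 detected mesenchymal markers were all lower in shCDK12 than in shNT: FN1, a matrix protein, averaged 659 ± 8.60 CPM (SD, n = 3) in shNT and 38.2 ± 2.93 in shCDK12. The part of such differences between the labelled lines in the results below was not tested.

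**Figure D1:**
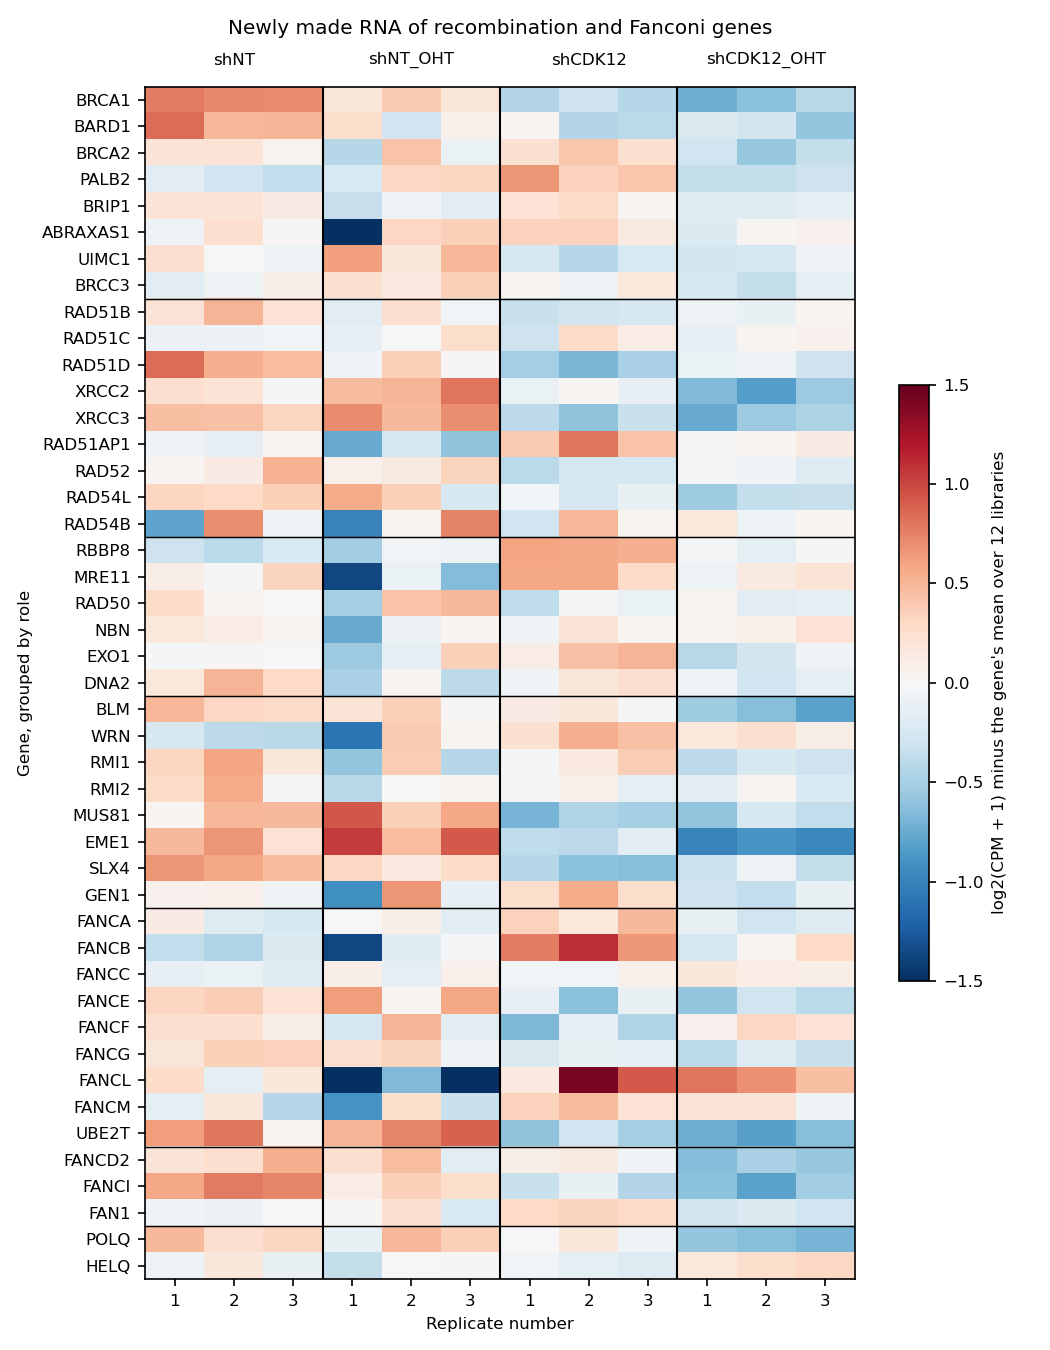
Heat map of the 45 genes (rows, grouped by role) in the 12 libraries (columns, by group and replicate number). Colour gives log2(CPM + 1) minus the gene's mean over the 12 libraries, with values beyond ±1.5 drawn at the end of the scale. BRCA1, UBE2T, EME1 and FANCI are mostly red in the shNT libraries and blue in the shCDK12 libraries, FANCB and RBBP8 are reddest in shCDK12, and FANCL is blue in shNT_OHT.

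The heat map shows that the genes did not move as one block. Most replicates of a group share their colours, with shNT_OHT the most uneven group: its replicate 1, for example, held ABRAXAS1, WRN, MRE11 and GEN1 well below the other libraries.

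Promoters of the genes were read from RefSeq (GRCh38.p14), which held a window of 250 bases before to 50 bases after the start for 39 of the 45. E2F factors, which switch on genes for DNA replication at the entry into S phase, bind elements such as TTTCCCGC, TTTCGCGC, TTTGCCGC and TTTGGCGC. Searched on both strands, these letters occurred in 6 of the 39 promoters (15.4%), against 3.3% of all 27305 RefSeq promoters and 5.7% of the 9416 promoters of genes tested in the shCDK12 against shNT comparison. All 6 are shown, because 5 of these genes fell together upon OHT in the shCDK12 libraries (below). On the plus strand of GRCh38.p14 they are EXO1 (chr1:241847954-241848233), GEN1 (chr2:17753619-17753898) and FANCD2 (chr3:10026187-10026466), and on the minus strand XRCC2 (chr7:152676112-152676391), FANCA (chr16:89816618-89816897) and FANCC (chr9:95317680-95317959). Each line gives 250 bases before to 30 bases after the start, 5′ to 3′ on the gene's strand, with the element in capitals in either orientation.
EXO1: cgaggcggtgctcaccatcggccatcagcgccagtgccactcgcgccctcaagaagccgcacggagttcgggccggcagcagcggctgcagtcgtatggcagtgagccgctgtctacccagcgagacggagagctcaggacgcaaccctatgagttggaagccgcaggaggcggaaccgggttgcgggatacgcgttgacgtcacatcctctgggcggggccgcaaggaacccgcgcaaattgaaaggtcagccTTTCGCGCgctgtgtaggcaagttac
GEN1: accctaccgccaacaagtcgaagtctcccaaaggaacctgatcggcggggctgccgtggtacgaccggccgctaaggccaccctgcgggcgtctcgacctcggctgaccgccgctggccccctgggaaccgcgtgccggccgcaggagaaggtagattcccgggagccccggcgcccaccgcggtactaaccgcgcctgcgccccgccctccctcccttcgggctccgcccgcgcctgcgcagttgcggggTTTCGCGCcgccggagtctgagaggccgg
FANCD2: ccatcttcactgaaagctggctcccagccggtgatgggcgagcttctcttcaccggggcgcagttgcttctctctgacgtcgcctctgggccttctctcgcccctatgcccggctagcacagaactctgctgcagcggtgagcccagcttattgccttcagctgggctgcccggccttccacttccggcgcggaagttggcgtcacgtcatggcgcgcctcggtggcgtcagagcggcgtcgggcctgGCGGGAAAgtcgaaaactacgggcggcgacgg
XRCC2: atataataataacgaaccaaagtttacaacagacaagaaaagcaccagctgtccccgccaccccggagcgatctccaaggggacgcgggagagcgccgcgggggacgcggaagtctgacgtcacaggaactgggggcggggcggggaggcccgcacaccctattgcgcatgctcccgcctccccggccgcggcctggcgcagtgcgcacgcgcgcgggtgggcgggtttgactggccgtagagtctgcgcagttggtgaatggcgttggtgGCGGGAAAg
FANCA: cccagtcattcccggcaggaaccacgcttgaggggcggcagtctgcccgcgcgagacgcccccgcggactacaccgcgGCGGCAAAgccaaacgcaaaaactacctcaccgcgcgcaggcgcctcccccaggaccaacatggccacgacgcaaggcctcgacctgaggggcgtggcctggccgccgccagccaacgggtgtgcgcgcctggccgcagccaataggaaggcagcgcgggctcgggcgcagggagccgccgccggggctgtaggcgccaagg
FANCC: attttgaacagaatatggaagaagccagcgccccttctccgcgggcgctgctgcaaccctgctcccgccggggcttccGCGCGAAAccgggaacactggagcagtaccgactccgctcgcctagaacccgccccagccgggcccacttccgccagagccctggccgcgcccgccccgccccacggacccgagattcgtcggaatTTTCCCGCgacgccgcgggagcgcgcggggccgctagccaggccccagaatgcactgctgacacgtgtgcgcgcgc
In EXO1, GEN1, FANCD2 and XRCC2 the element lies within 30 bases of the start, and FANCC holds 2 elements. Shares of other motifs were closer to those of all promoters. The CCAAT box (CCAAT) was in 35.9% of the gene set's promoters and in 35.7% of all, the CHR element (TTTGAA or TTCGAA), found in many genes of G2 and mitosis, in 12.8% and 16.6%, and the E-box bound by Myc (CACGTG) in 10.3% and 7.4%. Of the promoters of genes tested in shCDK12 against shNT, 36.9% held a CCAAT box, 11.4% a CHR element and 10.3% an E-box. A match of letters does not show that a factor binds there.

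The first comparison, shCDK12 against shNT without OHT, asks what the hairpin against CDK12 did in cells with inactive MycER. The libraries labelled shCDK12 had lower new RNA of BRCA1, of the nuclease subunits SLX4, MUS81 and EME1, of the ubiquitin enzyme UBE2T and of FANCI, and higher new RNA of FANCB, RBBP8 and WRN. Of the 44 genes tested, 17 fell and 11 rose, where 62.0% of all 11718 genes tested were called, 32.4% as lower and 29.6% as higher. The median log2 fold change was -0.22 for these genes and -0.03 for all genes. Lower calls thus made up 38.6% of the set, close to the share among all genes. In 27 of the 28 called genes the 3 shNT and the 3 shCDK12 libraries did not overlap, as in 93.7% of all genes called.

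BRCA1 (Entrez 672), which directs breaks to recombination, was read at 70.5, 68.5 and 67.7 CPM in shNT and at 30.1, 33.0 and 30.4 CPM in shCDK12. The lowest shNT library was above the highest shCDK12 library. BRCA1, RAD51D, SLX4, FANCB, RBBP8 and WRN were chosen in this comparison on such a separation, so it lends them no support. The fall of 54.7% in BRCA1 corresponds to a log2 fold change of -1.14 ± 0.13 (SE, adjusted p = 6.25e-08). Its obligate partner BARD1 fell by a similar amount, with -0.91 ± 0.15 (SE, adjusted p = 7.66e-06), and UIMC1 (RAP80), the ubiquitin reader of a BRCA1 complex, by less, with -0.39 ± 0.13 (SE, adjusted p = 0.00981), a call lost without shNT replicate 1 (-0.28, adjusted p = 0.108). BRCA2, a central protein of strand exchange, was not called: 95.1, 96.0 and 86.7 CPM in shNT and 97.7, 111 and 98.6 in shCDK12, 0.14 ± 0.11 (SE, adjusted p = 0.243). PALB2, the bridge between BRCA1 and BRCA2, rose instead, from 103, 93.5 and 88.7 to 181, 145 and 153 CPM (log2 fold change 0.74 ± 0.11 SE, adjusted p = 1.52e-06). The helicase BRIP1 and the BRCA1-A subunits ABRAXAS1 and BRCC3 were not called, with log2 fold changes between 0.00 and 0.21.

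Among the mediators of strand exchange, which help the broken end to pair with the sister, 5 of the 8 genes tested fell and 1 rose. RAD51D (Entrez 5892) had the largest fall of all 44 genes, from 26.9, 21.7 and 20.6 CPM in shNT to 9.96, 8.71 and 10.2 CPM in shCDK12 (log2 fold change -1.28 ± 0.22 SE, adjusted p = 1.66e-05). XRCC3 and RAD51B, of the same group, had log2 fold changes of -0.91 ± 0.19 (SE, adjusted p = 0.000276) and -0.67 ± 0.25 (SE, adjusted p = 0.0230). RAD51B lost its call without shNT replicate 2 or shCDK12 replicate 3 (-0.54 and -0.69, adjusted p = 0.125 and 0.0527). The annealing protein RAD52 and the motor protein RAD54L fell, with log2 fold changes of -0.54 and -0.47. RAD51AP1, which stimulates strand exchange, rose (log2 fold change 0.63 ± 0.14 SE, adjusted p = 0.000295), while RAD51C and XRCC2 were not called and RAD54B was too low to be tested.

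No gene of end resection fell. RBBP8 (CtIP, Entrez 5932), which starts the trimming of broken ends, rose from 52.0, 48.6 and 55.1 CPM to 97.97, 96.1 and 94.0 CPM. The increase was 0.90 ± 0.12 (SE, adjusted p = 4.70e-07). The long-range nuclease EXO1 rose less, with 0.37 ± 0.12 (SE, adjusted p = 0.00968), and its call was lost without shCDK12 replicate 3 (0.29, adjusted p = 0.0806). MRE11, RAD50, NBN and DNA2 were not called.

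Of the genes that take joined molecules apart, 3 fell and 2 rose. The structure-specific nuclease genes SLX4 (Entrez 84464), MUS81 and EME1 fell. SLX4, the scaffold, was read at 74.7, 70.9 and 65.7 CPM in shNT and 34.5, 30.2 and 29.8 CPM in shCDK12 (log2 fold change -1.17 ± 0.14 SE, adjusted p = 5.14e-08). MUS81 and its partner EME1 had log2 fold changes of -0.90 ± 0.15 (SE, adjusted p = 1.24e-05) and -0.82 ± 0.15 (SE, adjusted p = 5.88e-05). The other resolvase gene, GEN1, was called higher (log2 fold change 0.35 ± 0.13 SE, adjusted p = 0.0263) but lost the call without any one of shNT replicates 1, 2 and 3 (0.36, 0.37 and 0.31) or without shCDK12 replicate 2 (0.23, adjusted p = 0.153). The helicase gene WRN rose from 24.6, 22.1 and 21.6 to 34.3, 42.9 and 40.0 CPM (log2 fold change 0.78 ± 0.16 SE, adjusted p = 0.000206). BLM and its partners RMI1 and RMI2 were all below 0 and not called.

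Of the 9 genes of the Fanconi core and its partners, 4 rose and 4 fell. FANCB (Entrez 2187), a core subunit on the X chromosome, had the largest rise of the set: 12.9, 12.1 and 14.5 CPM in shNT and 29.4, 37.5 and 27.0 CPM in shCDK12 (log2 fold change 1.28 ± 0.20 SE, adjusted p = 4.53e-06, or 2.44-fold). The anchor helicase FANCM and the core subunit FANCA had log2 fold changes of 0.45 ± 0.16 and 0.42 ± 0.14 (adjusted p = 0.0189 and 0.0112). FANCM lost the call without shNT replicate 1, shNT replicate 3 or shCDK12 replicate 2 (0.41, 0.34 and 0.37), and FANCA without shNT replicate 2 or shCDK12 replicate 3 (0.36 and 0.34). FANCL, the ubiquitin ligase, was called higher with overlapping groups (13.6, 9.95 and 12.5 against 12.3, 31.4 and 21.8 CPM), and the call rested on shCDK12 replicate 2, since without it the log2 fold change of 0.92 became 0.53 (adjusted p = 0.0955). UBE2T (Entrez 29089), the ubiquitin-conjugating partner of FANCL, went the other way, from 60.9, 68.5 and 40.6 CPM to 25.3, 31.5 and 27.0 CPM (log2 fold change -1.04 ± 0.16 SE, adjusted p = 5.20e-06). The core subunits FANCE, FANCF and FANCG fell, with log2 fold changes of -0.62, -0.61 and -0.45.

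The 2 substrates of the core complex differed. FANCI was read at 74.5, 85.1 and 82.7 CPM in shNT and 38.9, 45.4 and 36.1 CPM in shCDK12, a fall of 49.9% (log2 fold change -0.998 ± 0.13 SE, adjusted p = 4.60e-07). FANCD2, its partner, was read at 46.4, 48.4 and 59.1 and 43.3, 44.8 and 39.2 CPM. The FANCD2 libraries did not overlap, but the difference of -0.25 ± 0.14 was not called (adjusted p = 0.131). The nuclease FAN1 rose (log2 fold change 0.37 ± 0.12 SE, adjusted p = 0.0123), a call lost without shNT replicate 2 (0.35, adjusted p = 0.0510). POLQ, the polymerase of alternative end joining, fell slightly (log2 fold change -0.32 ± 0.13 SE, adjusted p = 0.0312) and lost the call without shNT replicate 1, shCDK12 replicate 1 or shCDK12 replicate 3 (-0.24, -0.29 and -0.27). HELQ was not called.

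**Figure D2:**
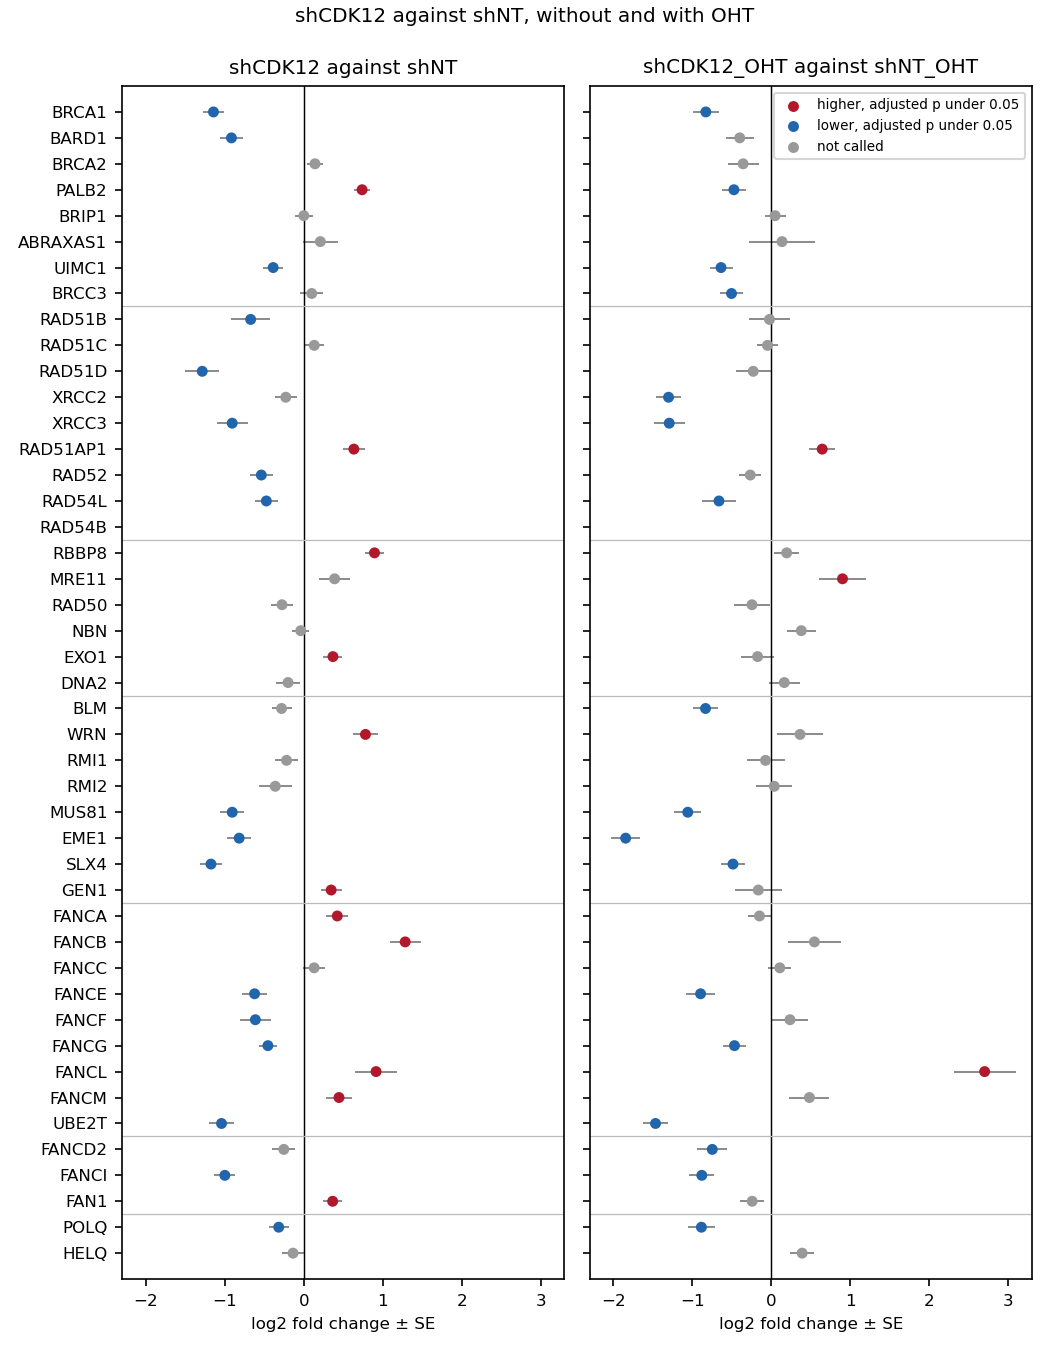
Log2 fold change (points) with its SE (bars) of each gene for shCDK12 against shNT (left) and shCDK12_OHT against shNT_OHT (right). Red and blue points are genes called higher and lower, grey points were not called, and RAD54B was not tested. Points scatter on both sides of 0 on the left, from -1.28 to 1.28, while on the right 17 genes are called lower and 3 higher, with FANCL at 2.701.

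The second comparison, shCDK12_OHT against shNT_OHT, puts the same question to cells with active MycER, and shares no library with the first. Again 17 of 44 genes fell, while 3 rose, where 45.4% of all 11668 genes tested were called, 21.6% as lower and 23.8% as higher. The largest falls were in EME1, UBE2T, XRCC2 and XRCC3, and the largest rise in FANCL, which had at most 8 counts in any shNT_OHT library. The median was -0.24, against 0.05 over all genes. Lower calls were 38.6% of the set, as without OHT, and higher calls 6.82%. All 20 called genes had groups that did not overlap, as had 97.0% of all genes called. The plot of fold changes in both comparisons shows fewer higher calls with OHT, 3 in place of 11, at the same number of lower calls.

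EME1 (Entrez 146956) was read at 72.1, 47.9 and 65.5 CPM in shNT_OHT and at 16.7, 18.1 and 17.1 CPM in shCDK12_OHT. The shCDK12_OHT libraries lay close together and far below the lowest shNT_OHT library. The fall was 72.1% (log2 fold change -1.84 ± 0.18 SE, adjusted p = 3.24e-05), the largest of the set. UBE2T went from 55.8, 65.2 and 73.1 CPM to 23.1, 21.7 and 24.7 CPM (log2 fold change -1.47 ± 0.16 SE, adjusted p = 6.55e-05). XRCC2, a gene of the mediator group that was not called without OHT, went from 62.4, 64.3 and 78.9 CPM to 28.0, 24.8 and 30.3 CPM (log2 fold change -1.30 ± 0.16 SE, adjusted p = 0.000119). For all 3 genes every shNT_OHT library exceeded every shCDK12_OHT library, but they were chosen on that condition, so it lends them no support.

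BRCA1 was read at 46.7, 54.5 and 46.7 CPM in shNT_OHT and 24.5, 26.5 and 30.5 CPM in shCDK12_OHT, a log2 fold change of -0.83 ± 0.17 (SE, adjusted p = 0.00221). FANCI fell from 53.3, 63.5 and 59.2 CPM to 31.9, 27.9 and 34.1 CPM (log2 fold change -0.88 ± 0.16 SE, adjusted p = 0.00109) and FANCD2 from 48.6, 56.1 and 36.3 CPM to 25.4, 28.6 and 27.0 CPM (log2 fold change -0.75 ± 0.19 SE, adjusted p = 0.00789), so that here both substrates of the core complex were called lower. BRCA2 was not called, with 61.7, 112 and 77.4 CPM against 67.7, 55.9 and 64.8 CPM (log2 fold change -0.36 ± 0.20 SE, adjusted p = 0.157). Its shNT_OHT libraries were widely spread, and without shNT_OHT replicate 1, the lowest, BRCA2 was called lower (-0.53, adjusted p = 0.00500).

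Other falls ran through several roles. XRCC3 (log2 fold change -1.29 ± 0.19 SE, adjusted p = 0.000394), MUS81 (log2 fold change -1.06 ± 0.17 SE, adjusted p = 0.000625), FANCE (log2 fold change -0.90 ± 0.18 SE, adjusted p = 0.00260), POLQ (log2 fold change -0.89 ± 0.17 SE, adjusted p = 0.00173) and BLM (log2 fold change -0.83 ± 0.16 SE, adjusted p = 0.00166) lost about as much as BRCA1 or more. UIMC1 and BRCC3, both subunits of the BRCA1-A complex, had log2 fold changes of -0.64 ± 0.15 and -0.50 ± 0.15 (adjusted p = 0.00475 and 0.0172). RAD54L, PALB2, SLX4 and FANCG were also called lower, at -0.47 to -0.66, with adjusted p from 0.0193 to 0.0287. Several of these calls were close to the threshold. RAD54L, FANCG, PALB2 and BRCC3 each lost the call without shCDK12_OHT replicate 1 and again without replicate 2, with log2 fold changes between -0.42 and -0.69. RAD54L and FANCG also lost it without replicate 3 (-0.70 and -0.46), and RAD54L without shNT_OHT replicate 1 (-0.42). SLX4 lost it without shCDK12_OHT replicate 1 or replicate 3 (-0.45 and -0.44), and PALB2 also without replicate 3 or without shNT_OHT replicate 3 (-0.39, adjusted p = 0.0880).

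The 3 rises were unlike in strength. FANCL (Entrez 55120) was read at 2.51, 6.60 and 1.45 CPM in shNT_OHT, from 8, 8 and 5 counts, and at 19.97, 18.4 and 15.4 CPM in shCDK12_OHT (log2 fold change 2.701 ± 0.39 SE, adjusted p = 0.000340). FANCL passed the filter, a mean normalized count over 32, only through its shCDK12_OHT libraries. Its test here thus depends on the group where it is high. The gene overlaps VRK2 in the annotation. VRK2 had a log2 fold change of 0.66 ± 0.23 in the same comparison (adjusted p = 0.0353). MRE11, the nuclease of the end-binding complex, went from 5.95, 15.7 and 10.4 CPM to 16.0, 18.7 and 19.6 CPM (log2 fold change 0.90 ± 0.30 SE, adjusted p = 0.0288). Its call was lost without shNT_OHT replicate 1, the lowest library (0.59, adjusted p = 0.0566), and without each of the 3 shCDK12_OHT libraries (0.82 to 0.96). RAD51AP1 went from 29.8, 42.1 and 33.1 CPM to 49.7, 52.4 and 55.5 CPM (log2 fold change 0.64 ± 0.16 SE, adjusted p = 0.00837) and lost the call without shCDK12_OHT replicate 3 (0.59, adjusted p = 0.0522).

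Side by side, 12 genes were called lower in both shRNA comparisons: BRCA1, UIMC1, XRCC3, RAD54L, MUS81, EME1, SLX4, FANCE, FANCG, UBE2T, FANCI and POLQ. RAD51AP1 and FANCL were called higher in both. These were 27.3% and 4.55% of the 44 genes. Of the 11440 genes tested in both comparisons, 10.97% were called lower in both and 10.73% higher in both. The 4.55% includes FANCL, whose calls are limited in both comparisons. With OHT, FANCL passed the filter only through its shCDK12_OHT libraries, the group where it is high. Without OHT its groups overlapped, and the call was lost without shCDK12 replicate 2 (0.53). PALB2 alone was called in opposite directions, higher without OHT and lower with it. With the control groups exchanged PALB2 was called in neither comparison. It was 0.36 in shCDK12 against shNT_OHT (adjusted p = 0.110) and -0.08 in shCDK12_OHT against shNT (adjusted p = 0.430). BRCC3, XRCC2, BLM and FANCD2 were called lower with OHT and not called without it, and BARD1, RAD51B, RAD51D, RAD52 and FANCF the reverse. RBBP8, EXO1, WRN, GEN1, FANCA, FANCB, FANCM and FAN1 were called higher without OHT and not called with it, and MRE11 was called higher with OHT alone. The other 11 genes were called in neither, among them BRCA2, BRIP1, RAD51C, RAD50 and NBN.

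**Figure D3:**
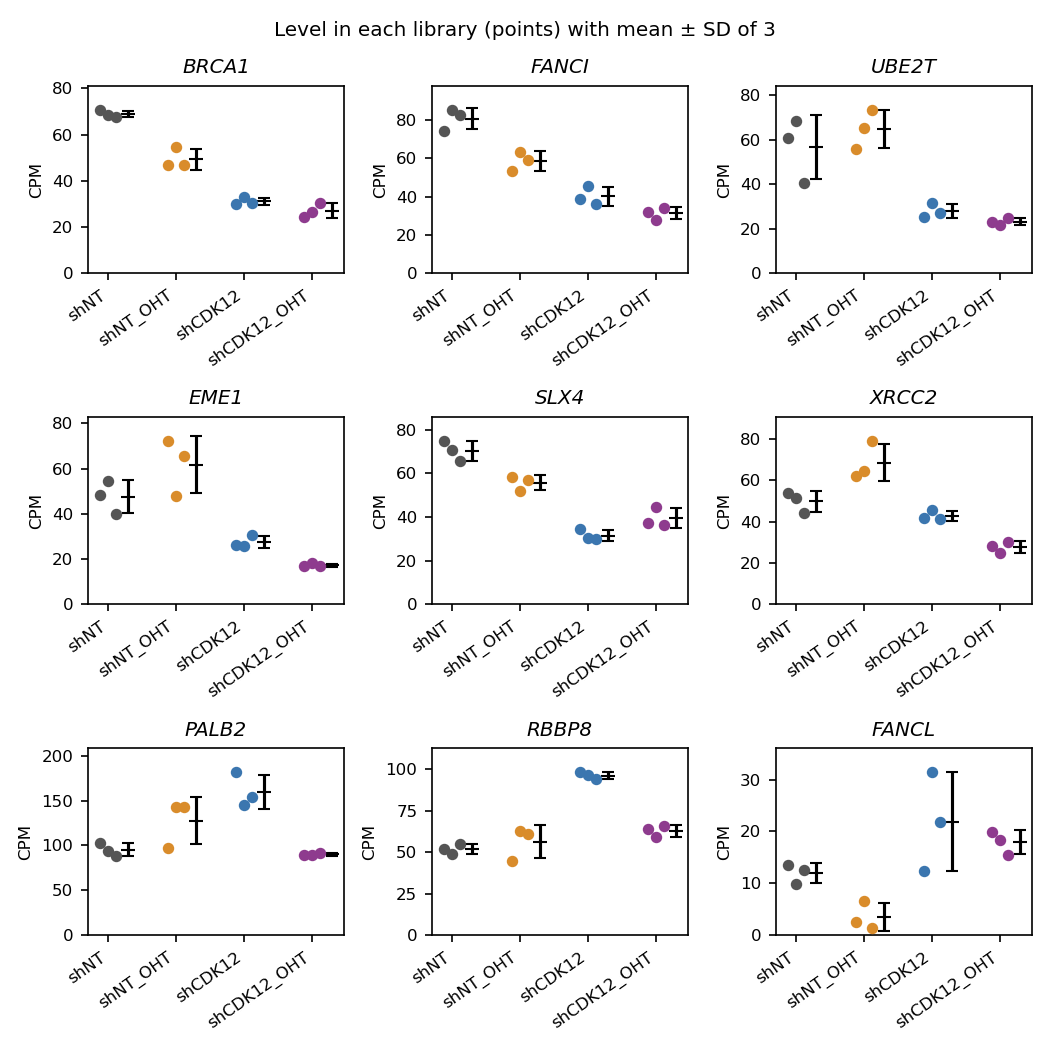
Level in CPM of 9 genes in each library (points), with the mean ± SD of 3 libraries beside them, in the 4 groups. BRCA1, FANCI, UBE2T, EME1 and SLX4 are lower in both shCDK12 groups than in both shNT groups, PALB2 and RBBP8 peak in shCDK12, XRCC2 is lowest in shCDK12_OHT, and FANCL is lowest in shNT_OHT.

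The levels plotted per library for 9 genes show that for BRCA1, FANCI, UBE2T, EME1 and SLX4 no library of a shCDK12 group reached any library of a shNT group. All of these were among the genes called lower in both comparisons. Groups did not overlap in 93.7% of all genes called without OHT and 97.0% with it. The share of all genes separated across all groups was not counted. Because CDK12 did not separate the groups without OHT, the comparisons were also made with the control groups exchanged, which is what an exchange of the labels shCDK12 and shCDK12_OHT would give. Against shNT_OHT, the shCDK12 libraries had 11 genes lower and 6 higher of 44, where 20.3% and 18.9% of all genes were called. Against shNT, the shCDK12_OHT libraries had 25 lower and 3 higher of 44, where 27.3% and 28.4% of all genes were called. BRCA1 was lower in each, with log2 fold changes of -0.62 ± 0.18 (SE, adjusted p = 0.0149) and -1.35 ± 0.12 (SE, adjusted p = 3.22e-11). The values of EME1 were -1.17 and -1.48, those of UBE2T -1.18 and -1.34, and those of FANCI -0.51 and -1.37. Other genes lost their call in shCDK12 against shNT_OHT. Among them were RAD54L, FANCG and POLQ (-0.37, -0.31 and -0.19, adjusted p = 0.212, 0.134 and 0.427). BARD1 and RAD51D were not called there either (-0.30 and -0.68, adjusted p = 0.260 and 0.0664). In shCDK12_OHT against shNT all of these genes were called lower.

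The third comparison asks what OHT did to these genes with the non-targeting hairpin. In shNT_OHT against shNT, 2 of 43 genes fell and none rose, where 17.3% of all 10272 genes tested were called, 8.29% as lower and 9.05% as higher. BARD1 was read at 89.0, 70.3 and 71.2 CPM in shNT and 59.5, 40.4 and 52.2 CPM in shNT_OHT (log2 fold change -0.58 ± 0.18 SE, adjusted p = 0.0425). BRCA1, at the levels given above, had a log2 fold change of -0.50 ± 0.17 (SE, adjusted p = 0.0497). The groups did not overlap for either gene, but both calls were close to the threshold. BRCA1 kept the call when shNT_OHT replicate 1 or 2 was left out and lost it without any other library (-0.44 to -0.52), and BARD1 kept it only without shNT_OHT replicate 1 (-0.43 to -0.66 in the others). At an unadjusted p under 0.05, 9 genes were lower and 3 higher, where 16.7% and 15.6% of all genes were, and DESeq2 called 1 gene lower and none higher. FANCL was too low to be tested here: its counts of 58, 51 and 25 in shNT and 8, 8 and 5 in shNT_OHT correspond to 13.6, 9.95 and 12.5 and 2.51, 6.60 and 1.45 CPM, which did not overlap.

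In the libraries labelled shCDK12_OHT more genes were lower than higher against those labelled shCDK12. Of all 45 genes, 19 fell and 4 rose in shCDK12_OHT against shCDK12, where 48.9% of all 12519 genes tested were called, 21.5% as lower and 27.5% as higher. The median was -0.29, against 0.05 over all genes, and 34 of the 45 genes lay below 0. With the 2 labels exchanged every sign in this comparison turns: 19 genes would be higher and 4 lower, with a median of 0.29, against -0.05 over all genes. The falls included the strand-invasion genes BRCA2 and PALB2, the resection genes RBBP8, MRE11 and EXO1, the helicases BLM and BRIP1, the nuclease GEN1, and all 3 genes of the FANCD2, FANCI and FAN1 group.

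FANCB, the gene that rose most without OHT, fell most here, from the shCDK12 levels given above to 14.0, 17.5 and 21.0 CPM (log2 fold change -0.87 ± 0.17 SE, adjusted p = 0.000324). PALB2 fell from 181, 145 and 153 CPM to 89.4, 89.1 and 92.0 CPM (log2 fold change -0.82 ± 0.09 SE, adjusted p = 1.27e-06), back to the range of shNT. BLM, the helicase that dissolves crossed strands, fell from 55.4, 57.1 and 50.2 CPM to 34.8, 32.2 and 28.7 CPM (log2 fold change -0.76 ± 0.11 SE, adjusted p = 3.03e-05). BRCA2 and RBBP8, whose levels are given above, had log2 fold changes of -0.72 ± 0.10 (SE, adjusted p = 1.37e-05) and -0.62 ± 0.09 (SE, adjusted p = 2.54e-05). In each of these 5 genes the highest shCDK12_OHT library was below the lowest shCDK12 library, a condition on which FANCB, PALB2 and BLM were chosen.

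FANCD2 and FANCI had log2 fold changes of -0.65 ± 0.12 (SE, adjusted p = 0.000247) and -0.38 ± 0.13 (SE, adjusted p = 0.0221). The FANCI call was lost without shCDK12 replicate 2, shCDK12_OHT replicate 1 or shCDK12_OHT replicate 2 (-0.28, -0.40 and -0.29). BRCA1 was not called (log2 fold change -0.21 ± 0.13 SE, adjusted p = 0.196). Of the 6 genes whose promoters are printed above, EXO1 (-0.63), GEN1 (-0.66), FANCD2 (-0.65), XRCC2 (-0.64) and FANCA (-0.54) were called lower and FANCC was not (0.13). Among the 33 other genes with a promoter window, 13 were called lower, and over all genes tested 27.4% of 547 genes with the element and 20.8% of 9429 without it were called lower. The motif was chosen and this comparison picked out with the results known, so the counts are a description.

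The 4 genes that rose were FANCF, RAD51D, HELQ and SLX4. FANCF, a core subunit, went from 13.9, 20.8 and 16.5 CPM to 24.0, 28.7 and 26.7 CPM (log2 fold change 0.60 ± 0.16 SE, adjusted p = 0.00406). RAD51D went to 13.6, 13.8 and 11.6 CPM (log2 fold change 0.46 ± 0.18 SE, adjusted p = 0.0445) and HELQ, a helicase of replication repair, from 42.9, 40.0 and 38.5 CPM to 49.5, 53.1 and 54.8 CPM (log2 fold change 0.38 ± 0.11 SE, adjusted p = 0.00661). None of these groups overlapped, a condition on which FANCF, RAD51D and HELQ were chosen. Of all genes called in this comparison, 95.7% had no overlap. RAD51D and SLX4 (0.34) lost their calls under DESeq2 (0.40 and 0.28) and without any one of shCDK12 replicates 2 and 3 and shCDK12_OHT replicates 1 and 2, with 0.37 to 0.51 for RAD51D and 0.24 to 0.38 for SLX4. Of the falls, MRE11 lost its call without shCDK12 replicate 2 or shCDK12_OHT replicates 1 or 2 (-0.34 to -0.45), and BRCC3 without shCDK12 replicate 3 or shCDK12_OHT replicates 1 or 2 (-0.24 to -0.30).

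Genes of the cell cycle also changed, but not always in the direction of the 45 genes. From a list of 25 genes of G2 and mitosis, all 25 fell in shCDK12_OHT against shCDK12 (median -0.82), 18 fell and none rose in shCDK12_OHT against shNT_OHT (median -0.78), and 12 rose and 3 fell in shCDK12 against shNT (median 0.16). In shNT_OHT against shNT, 2 of these 25 rose and none fell (median 0.14). From a list of 25 genes of the G1/S transition, 18 fell and none rose in shCDK12_OHT against shCDK12 (median -0.45), 6 fell and 2 rose in shCDK12_OHT against shNT_OHT, and 11 rose and 4 fell in shCDK12 against shNT. In the interaction, 23 of the 25 genes of G2 and mitosis were lower and none higher (median -0.84), and of the G1/S genes 11 were lower and 1 higher (median -0.46). Of all genes tested, 21.5% were called lower in shCDK12_OHT against shCDK12, 21.6% in shCDK12_OHT against shNT_OHT and 19.6% in the interaction. In shCDK12 against shNT, 29.6% of all genes were called higher and 32.4% lower, and in shNT_OHT against shNT 9.05% and 8.29%. Many genes of recombination are known to be transcribed mostly in S and G2 phase. The part of the cell cycle in the changes of the 45 genes was not tested.

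**Figure D4:**
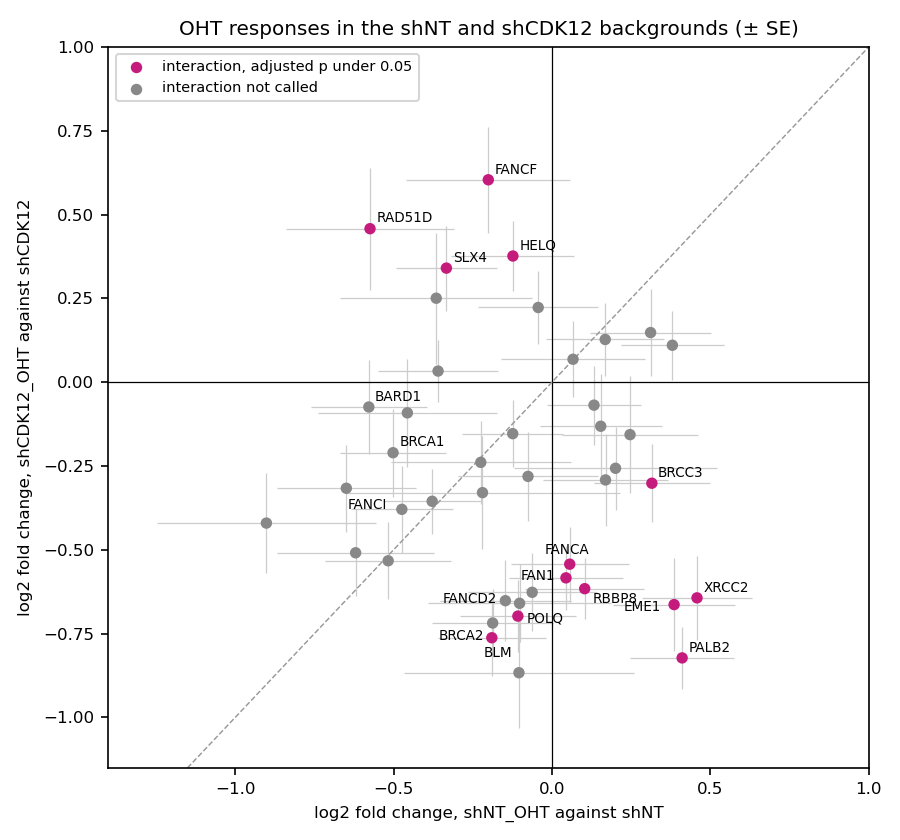
Log2 fold change upon OHT in the shNT libraries (x axis) and in the shCDK12 libraries (y axis), with SE bars, for the 43 genes tested in both; the dashed line marks equal responses. Genes in magenta were called in the test of the difference between the responses, and FANCL, also called, could not be drawn because it was not tested in shNT_OHT against shNT. Most genes lie below the dashed line and below 0 on the y axis, with PALB2, XRCC2 and EME1 farthest below the line and FANCF and RAD51D farthest above it.

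Whether OHT acted differently under the 2 hairpins was tested as an interaction over all 12 libraries, with the labels as deposited. In this test 9 of 44 genes were lower and 5 higher, where 45.2% of all 11699 genes tested were called, 19.6% as lower and 25.6% as higher. The median difference of the genes was -0.13, against 0.10 over all genes. PALB2 had the most negative difference (log2 difference -1.23 ± 0.19 SE, adjusted p = 3.41e-05): its log2 fold change upon OHT was 0.41 ± 0.16 with shNT, which was not called, and -0.82 with shCDK12. XRCC2 (log2 difference -1.10 ± 0.20 SE, adjusted p = 0.000194) and EME1 (log2 difference -1.05 ± 0.23 SE, adjusted p = 0.00113) had the same pattern, with 0.46 and 0.39 under shNT and -0.64 and -0.66 under shCDK12, where the rises were not called. RBBP8, BRCC3, FAN1, FANCA, POLQ and BLM were also called, between -0.57 and -0.72. FANCA lost its call without shNT replicate 2, shCDK12 replicate 3 or shCDK12_OHT replicate 2 (-0.51 to -0.55), and BLM without shNT replicate 2 or shCDK12_OHT replicate 3 (-0.54 and -0.50). POLQ lost it without shNT replicate 2, shNT_OHT replicates 2 or 3, shCDK12 replicate 2 or shCDK12_OHT replicates 2 or 3 (-0.48 to -0.59).

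With the labels shCDK12 and shCDK12_OHT exchanged, the interaction had a different outcome. No gene of the 44 was lower and 12 were higher (median 0.46, against -0.03 over all genes), where 3.84% of all genes were called lower and 2.04% higher. PALB2 became 0.42 (adjusted p = 0.205), XRCC2 0.18 and EME1 0.28, and none of these 3 was called. BRCA1 (0.71, adjusted p = 0.0354), BRCA2 (0.91, adjusted p = 0.0183), FANCD2 (0.80, adjusted p = 0.0412) and FANCI (0.85, adjusted p = 0.0139) were called higher. Each direction given for the interaction thus rests on the labels of the 2 silenced groups.

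With the labels as deposited, FANCL had a difference of 1.79 ± 0.54 (SE, adjusted p = 0.0113), from a low level in shNT_OHT, and lost the call without shNT_OHT replicate 3 (1.34, adjusted p = 0.0726). RAD51D (log2 difference 1.04 ± 0.30 SE, adjusted p = 0.00792) and FANCF (log2 difference 0.84 ± 0.30 SE, adjusted p = 0.0265) were read at 14.1, 19.0 and 14.8 and 18.8, 33.0 and 20.3 CPM in shNT_OHT, below or near their shNT levels, 27.2, 27.3 and 24.6 CPM in the case of FANCF. FANCF lost its call without any one of shNT replicates 1 and 2, shNT_OHT replicate 3, shCDK12 replicates 1 and 3 or shCDK12_OHT replicates 2 and 3, with values of 0.72 to 0.83. SLX4 and HELQ were also called, at 0.67 and 0.51. HELQ lost the call under DESeq2 (0.45, adjusted p = 0.0720) and without any one of 9 of the 12 libraries (0.38 to 0.55), shNT_OHT replicates 2 and 3 and shCDK12 replicate 1 being the exceptions. BRCA1 (log2 difference 0.30 ± 0.20 SE, adjusted p = 0.227), BRCA2 (log2 difference -0.51 ± 0.22 SE, adjusted p = 0.0656), FANCD2 (log2 difference -0.50 ± 0.23 SE, adjusted p = 0.0769) and FANCI (log2 difference 0.10 ± 0.20 SE, adjusted p = 0.707) were not called. Removing trends of gene length and GC content changed the split from 5 higher and 9 lower to 4 higher and 18 lower, and called BRCA2 (-0.89) and FANCD2 (-0.77). That correction also moved the median of all genes from 0.10 to -0.04. In shNT_OHT against shNT the same correction changed 0 higher and 2 lower into 4 higher and 0 lower.

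The genomic span of the 45 genes runs from 3.3 kb (FANCF) to 863.3 kb (RAD51B), with a median of 51.6 kb. The 8 genes under 20 kb were UBE2T, FANCE, FANCG, FANCF, MUS81, XRCC3, RMI2 and EME1. Of these, 7 fell and none rose in shCDK12 against shNT (87.5%), where 31.1% of all genes of this span were called lower. In shCDK12_OHT against shNT_OHT, 6 of the 8 fell (75.0%), where 29.8% of all genes this short were called lower. Of the 9 genes tested over 100 kb, 4 fell and 3 rose without OHT, where 35.1% of all genes of this span were called lower and 25.9% higher. With OHT, 3 of the 9 fell and none rose, where 10.6% of all genes this long were called lower and 33.5% higher. BRCA1 (126.0 kb), UIMC1 and POLQ are long genes that fell in both. Across the 44 genes Pearson's r between log10 span and fold change was 0.32 without and 0.29 with OHT, and across all genes tested -0.05 and 0.21. Genes are not independent replicates and share libraries, so these are descriptions, and the span classes were chosen with results known.

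**Figure D5:**
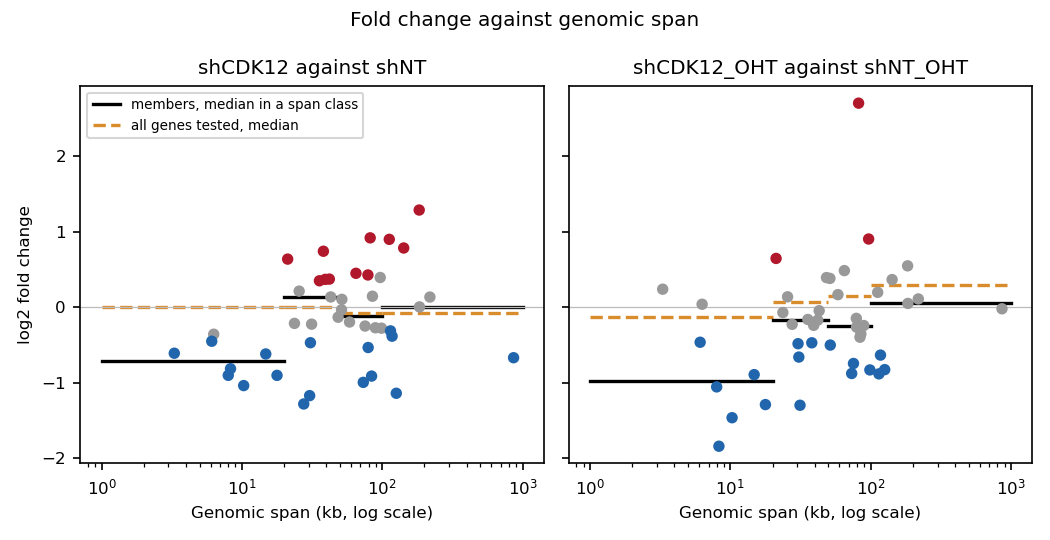
Log2 fold change against genomic span (kb, log scale) of the genes in shCDK12 against shNT (left) and shCDK12_OHT against shNT_OHT (right). Points are red where called higher, blue where called lower and grey otherwise, black lines are the medians of the genes in 4 span classes and dashed orange lines the medians of all genes tested. The black line for spans under 20 kb lies at -0.72 on the left and -0.98 on the right, below the orange line in both.

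In the plot of fold change against span, the 8 short genes stand below the dashed line of all genes, apart from FANCF (0.24) and RMI2 (0.04) with OHT, while the longer ones straddle it. Of the 45 genes, 21 overlap another annotated gene, and the use of strand in counting is not stated, so reads of both genes may be shared in part. The neighbours include NBR2 at BRCA1, KLC1 at XRCC3, EFEMP2 at MUS81, LRRC59 at EME1 and POLG at FANCI. NBR2, which starts beside BRCA1 on the other strand, had log2 fold changes of -0.74 ± 0.31 (SE, adjusted p = 0.0397) in shCDK12 against shNT and -0.82 ± 0.27 (SE, adjusted p = 0.0299) with OHT. SLX4, UBE2T, FANCE and FANCG overlap no annotated gene and were called lower in both.

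Genes of related pathways gave a background for the set. Of 43 other recombination and Fanconi genes tested in shCDK12 against shNT, 12 fell and 10 rose (median -0.01), and of 44 tested in shCDK12_OHT against shNT_OHT, 13 fell and 5 rose (median -0.03). Among 12 genes of end joining, the pathway that seals breaks without a template, 6 fell and 2 rose in both comparisons (medians -0.32 and -0.43). Among 7 genes of mismatch repair, 2 fell and 2 rose without OHT and 1 each with it. In shCDK12_OHT against shCDK12, the other recombination and Fanconi genes had 13 lower and 8 higher of 44, end joining 1 lower and 3 higher of 12, and mismatch repair 1 lower and none higher of 7.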

How the data were processed

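The authors deposited 1 table of raw counts per gene for 12 EU-seq libraries, with Entrez identifiers and no normalization. The submitters' processing notes name STAR 2.7.5c, featureCounts 1.4.5-p1 and hg19. The library kit keeps strand, but whether counting used it is not given in the sources used here. The table holds no mouse rows, so no spike-in scaling was made. No column of other samples was present.

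Counts were tested with edgeR 4.0.16 (R 4.3.3, limma 3.58.1) with TMM scaling and the quasi-likelihood test, 6 libraries per comparison of 2 groups and 12 for the interaction, on genes with a mean normalized count over 32, and p-values were adjusted by the Benjamini-Hochberg method over all genes tested, with a threshold of 0.05. The procedure was tested on simulated data. Alternatives were DESeq2 1.42.0, upper-quartile scaling, other filters, a replicate block, thinning, removal of length and GC trends (99.13% of tested genes had both values), 1 fit of all libraries, leaving out each library, and, after the data were seen, exchanged control groups and exchanged labels of the shCDK12 groups. The 3 replicates of each group differed by more than counting noise.

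Values in every library are given for BRCA1, BRCA2, FANCD2, FANCI and, per comparison, for the 3 genes that rose most and the 3 that fell most by log2 fold change, among called genes whose groups did not overlap. For the interaction, overlap was not considered. The 45 genes and the other lists were chosen with earlier results of these data known. Of the other recombination and Fanconi genes, 48 of 50 are in the table. Spans and promoters come from RefSeq and GC content from GENCODE, both on GRCh38, while counts were made on hg19, so genes were matched by identifier or symbol and never by coordinates. A few genes of the other lists are not reported here by name.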

Additional observations from a re-analysis of the deposited data

Results flagged for a closer look

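The response to OHT differed between the shCDK12 and the shNT libraries in 14 of the 44 genes tested, by the interaction term of edgeR fitted over 12 libraries. This is 31.8% of them, where 45.2% of all genes tested were called. From the list of 25 genes of G2 and mitosis, 23 were lower in the same test, and their part in these differences was not tested. With the labels shCDK12 and shCDK12_OHT exchanged, 12 of the 44 were called, all higher, and 5.88% of all genes. Values are the log2 response with shCDK12 minus that with shNT. Below 0 stood PALB2 (-1.23, adjusted p = 3.41e-05), XRCC2 (-1.10, adjusted p = 0.000194), EME1 (-1.05, adjusted p = 0.00113), RBBP8 (-0.72, adjusted p = 0.00436), BRCC3 (-0.63, adjusted p = 0.0131), FAN1 (-0.62, adjusted p = 0.00884), FANCA (-0.59, adjusted p = 0.0222), POLQ (-0.58, adjusted p = 0.0275) and BLM (-0.57, adjusted p = 0.0213). Above 0 stood FANCL (1.79, adjusted p = 0.0113), RAD51D (1.04, adjusted p = 0.00792), FANCF (0.84, adjusted p = 0.0265), SLX4 (0.67, adjusted p = 0.00760) and HELQ (0.51, adjusted p = 0.0492). In RBBP8, FAN1 and FANCA the OHT response with shNT was between 0.04 and 0.10. With 3 libraries a group, no search for libraries far from their group was made.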

How the results depend on the processing

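Across edgeR, DESeq2, the scalings, the filters and the fits that left out 1 library, 14 of the 17 lower calls of shCDK12 against shNT, 12 of the 17 of shCDK12_OHT against shNT_OHT and 16 of the 19 of shCDK12_OHT against shCDK12 were kept throughout. Of the higher calls 5 of 11, 1 of 3 and 2 of 4 were kept, and of the interaction 6 of 9 lower and 2 of 5 higher. Leaving out 1 library at a time gave 8 to 12 higher and 15 to 19 lower in shCDK12 against shNT, 1 to 4 and 12 to 21 in shCDK12_OHT against shNT_OHT, 0 to 3 and 0 to 6 in shNT_OHT against shNT, 2 to 4 and 16 to 23 in shCDK12_OHT against shCDK12, and 3 to 5 and 6 to 14 in the interaction. In shNT_OHT against shNT these fits gave a median of -0.18 to 0.031, above 0 without shNT_OHT replicate 1, and FANCD2 at -0.23 to 0.051, above 0 without shNT_OHT replicate 3.

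Thinning every library to the smallest total of 1251695 counts left fewer calls: 4 higher and 7 lower in shCDK12 against shNT, 0 and 9 in shCDK12_OHT against shNT_OHT, 0 lower in shNT_OHT against shNT, 0 and 2 in shCDK12_OHT against shCDK12, and 0 and 2 in the interaction. In the thinned shNT_OHT against shNT the median was 0.054 and BRCA1 0.044, and in the thinned interaction BRCA1 was -0.076, FANCD2 0.027 and FANCI -0.65. Thinning also leaves fewer genes to test. Of 200 genes with simulated 2-fold changes, 183 were recovered in shCDK12 against shNT, 142 in shCDK12_OHT against shNT_OHT, 152 in shNT_OHT against shNT, 191 in shCDK12_OHT against shCDK12 and 101 in the interaction. All other genes were left unchanged in that simulation, whereas 17.3% to 62.0% of all genes were called in the data. The adjustment of p-values thus differs, and the counts do not give the power of the tests reported.

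With trends of length and GC content removed, CDK12 in shCDK12 against shNT was 0.0069, 1 gene was higher in shCDK12_OHT against shNT_OHT and 2 in shCDK12_OHT against shCDK12, shNT_OHT against shNT had 4 higher and 0 lower (median 0.079, BRCA2 0.14, FANCD2 0.038), and the interaction had 18 lower (BRCA1 -0.074, FANCI -0.20). The median of all genes moved from 0.05 to -0.06 in shCDK12_OHT against shNT_OHT. In shNT_OHT against shNT, the genes called lower were 1 by DESeq2, 4 with upper-quartile scaling, 1 with filterByExpr and 9 in a fit of all 12 libraries, which also called 3 higher. In shCDK12_OHT against shCDK12, the genes called higher were 2 by DESeq2, 2 with upper-quartile scaling and 2 in the fit of all 12 libraries. With the control groups exchanged, an alternative chosen after the data were seen, shCDK12 had 6 higher and 11 lower and MRE11 in shCDK12_OHT became -0.016. With the labels shCDK12 and shCDK12_OHT exchanged, also chosen after the data were seen, shCDK12_OHT against shCDK12 had 19 higher and 4 lower (median 0.29), and the interaction 12 higher and 0 lower (median 0.46), with PALB2 at 0.42, XRCC2 0.18, EME1 0.28, FANCF -0.39, BRCA2 0.91 and FANCD2 0.80. The cause of these shifts was not tested.

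The main fits did not pair samples by replicate number. Deviations of same-numbered libraries correlated at -0.09 to 0.32 (median 0.03), with 3 of 18 pairs over 0.1. Those of differently numbered libraries correlated at -0.36 to 0.1 (median -0.01), with 0 of 36 pairs over 0.1. Of 12 libraries, 6 correlated best with one of their own number, so a partial pairing cannot be set aside. With the replicate number as a block, 1 gene was lower in shNT_OHT against shNT in place of 2, and the counts of called genes in the other comparisons moved by no more than 1.5 times.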
